A study of Homo sapiens with 32 samples.

Results

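The unfolded protein response and the integrated stress response were followed through 40 genes, chosen by symbol from 19345 in the expression table and whatever their levels. They comprised 17 genes of the ATF4 arm, 14 genes of protein folding in the endoplasmic reticulum (ER), 5 genes of ER-associated degradation (ERAD) and translocation, and 4 genes for the stress sensors and XBP1. All 40 were in the table. EPC2 is a line of human esophageal epithelial cells immortalized with telomerase, so every library came from 1 line. Cells were grown flat (monolayer, taken at day 0 before seeding) or as spheroids inside Matrigel (the medium was serum-free keratinocyte medium, and its CaCl2 was 0.6 mM), and the libraries were made from total RNA. The groups were monolayers (10 libraries), spheroids at day 3 (D3, 9 libraries), D11 spheroids given interleukin 13 (IL-13, a type 2 cytokine, 20 ng/ml) between day 3 and day 11 (6 libraries), and untreated D11 spheroids (7 libraries). They came from 2 independent experiments, called batch 1 and batch 2 in the labels. Monolayers were 5 from each batch, D3 spheroids 5 from batch 2 and 4 from batch 1, and untreated D11 spheroids 3 from batch 2 and 4 from batch 1. Monolayers and spheroids differed in culture as well as in day, and growth in Matrigel cannot be told apart from those other differences.

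When protein folding in the ER fails, 3 membrane sensors respond. PERK (EIF2AK3) phosphorylates the initiation factor eIF2, which lowers general translation and raises translation of ATF4. IRE1 (ERN1) splices the mRNA of the transcription factor XBP1, and ATF6 is cut to release a transcription factor. XBP1 and ATF6 act on genes of ER chaperones and ERAD, while ATF4 acts on genes of amino acid synthesis and on regulators such as DDIT3 (CHOP). Other eIF2 kinases, which sense amino acid shortage, heme loss or viral RNA, also lead to ATF4 without ER stress, and that wider pathway is the integrated stress response. Transcript levels show neither eIF2 phosphorylation, XBP1 splicing nor ATF6 cleavage.

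The 2 arms are known for different DNA elements in their promoters, which is why the following sequences are shown. For 37 of the 40 genes RefSeq windows on GRCh38.p14 were at hand, reaching from 250 bases before to 50 bases after a transcript start. Each line gives the strand of the gene read 5′ to 3′, with the element in capitals. The first 4 hold the ER stress element, CCAAT and CCACG with 9 bases between them, or its reverse complement in CALR.
HSPA5, chr9:125241376-125241424, minus strand: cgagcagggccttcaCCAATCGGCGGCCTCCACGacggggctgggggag
HSP90B1, chr12:103930201-103930249, plus strand: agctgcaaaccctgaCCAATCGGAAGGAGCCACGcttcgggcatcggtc
CALR, chr19:12938369-12938417, plus strand: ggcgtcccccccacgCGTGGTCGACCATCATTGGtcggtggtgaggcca
XBP1, chr22:28800588-28800636, minus strand: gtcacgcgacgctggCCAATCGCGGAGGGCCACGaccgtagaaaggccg

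The next 2 hold the second form of that element, ATTGG and CCACG with 1 base between them, or its reverse complement in HYOU1. This form was added after the other matches had been seen.
HYOU1, chr11:119057365-119057405, minus strand: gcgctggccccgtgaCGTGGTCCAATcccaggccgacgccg
HERPUD1, chr16:56932010-56932050, plus strand: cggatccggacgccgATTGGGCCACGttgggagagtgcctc

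The last 3 hold the core of the C/EBP-ATF response element bound by ATF4, TGATG and AA with any 1 base between them, or its reverse complement in CHAC1.
ASNS, chr7:97872454-97872491, minus strand: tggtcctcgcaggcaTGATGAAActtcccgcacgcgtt
CHAC1, chr15:40953247-40953284, plus strand: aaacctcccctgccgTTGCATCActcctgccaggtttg
CEBPG, chr19:33374056-33374093, plus strand: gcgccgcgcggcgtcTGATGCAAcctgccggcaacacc

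Both strands were searched in every window. The ER stress element was in 6 of the 13 ER folding genes with a window (PDIA6, CANX, HSPA5, HSP90B1, CALR and CRELD2), in XBP1, in 0 of 15 ATF4-arm genes and in 0.0916% of 27305 genes. Its second form was in HYOU1, SDF2L1 and HERPUD1, and in 0.0696% of genes. The C/EBP-ATF core was in 3 of 15 ATF4-arm genes (20.0%), in 0 of 13 ER folding genes and in 4.46% of all genes. It was also in HERPUD1, whose window thus held elements of both kinds. A match describes letters in a window and shows no binding.

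Values are TPM, a length-normalised share of a library scaled to a fixed total, so levels of different genes are comparable per length but read depth is unknown. All 40 genes passed the filter of at least 1 TPM in at least 6 libraries, as did 12221 genes in all. A change is a difference of log2(TPM + 1), given ± its standard error (SE), and understates that of a low gene. "Rose", "fell", "higher" and "lower" are used of calls at a limma adjusted p under 0.05, adjusted over all 12221 genes. The labels do not say whether libraries of a batch came from separate cultures, so the p-values measure a spread between libraries that may be technical. The 5 squamous epithelial markers passed the filter and summed to 22929.6 TPM or more in every library, with KRT5 at 12359.6 TPM or more. Of the markers of other cells, 1 of 5 fibroblast genes (COL1A1), 1 of 3 immune genes in the table (CD14) and 0 of 3 endothelial genes passed. PTPRC, which marks all leukocytes, was at 0.1 TPM or less. For COL1A1 the mean was 5.94 ± 2.41 TPM in monolayers, 19.6 ± 9.37 TPM at D3 and 69.9 ± 8.43 TPM at D11 without IL-13 (SD). Its part in the results below was not tested.

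Some libraries stood apart. D3 libraries 4 (labelled batch 1) and 5 (labelled batch 2) had ATF4-arm levels that were high for D3, described below with the results with and without them. By mitochondrial share, D3 libraries 4 (39.7%, labelled batch 1) and 7 (54.6%, labelled batch 2) lay with the other batch, since the other batch 2 libraries were at 39.1 to 45.8% and the other batch 1 libraries at 53.1 to 57.1%. Whether these 2 labels were exchanged could not be settled, so every split of D3 by batch below follows the labels and carries that doubt. Among the IL-13 libraries, library 1 had the lowest level of 16 members by a wide gap. Transcripts of the mitochondrial genome made up 47.6 ± 2.0% of a monolayer library, 47.8 ± 7.3% of a D3 library and 21.9 ± 3.97% of an untreated D11 library (SD), and a larger share lowers those of all other genes. Rescaling by median of ratios, which fixes the median gene, moved the median change of all genes at D3 against monolayers to -0.01, against -0.44 as deposited.

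**Figure D1:**
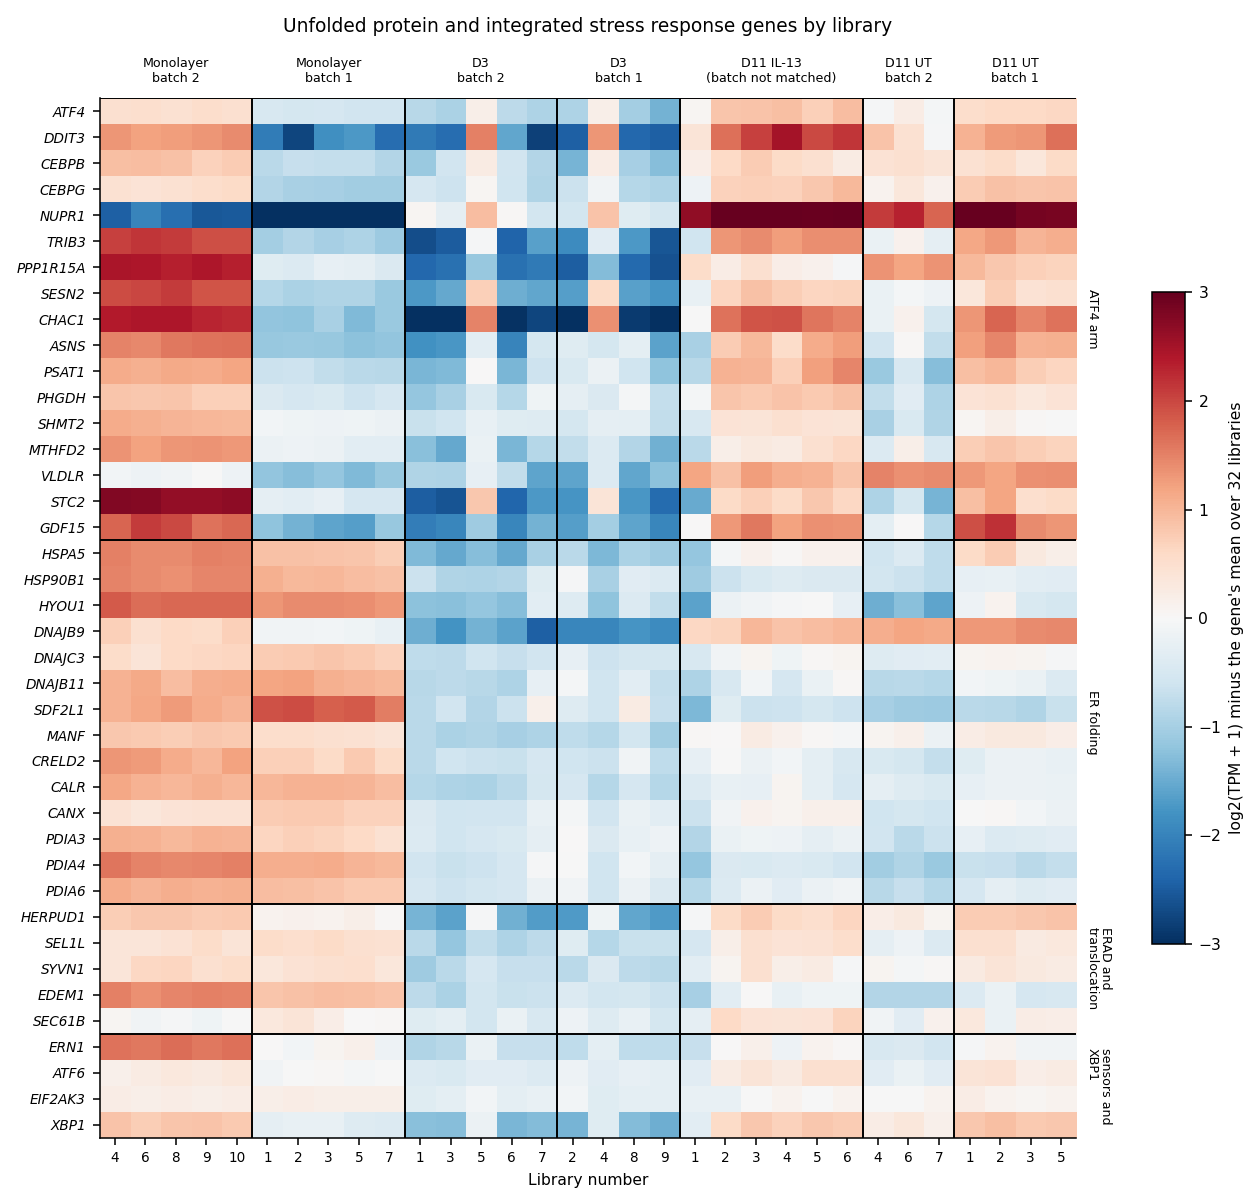
Levels of the 40 genes (vertical, in 4 role groups) in 32 libraries (horizontal, by group and batch), as log2(TPM + 1) minus the gene's mean, with the colour limited to values between -3 and 3. Most ER folding genes are high in all monolayers. Most ATF4-arm genes are high in the 5 monolayers of batch 2 and in most D11 spheroids. In D3 libraries 4 and 5 most ATF4-arm genes are higher than in the other D3 libraries.

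At D3 the ER folding genes were lower than in monolayers throughout. All 14 fell, with a median change of -1.65, against -0.44 over all genes. Of the 40 members 37 fell, 1 rose and 2 did not pass the test. The background was wide, since 68.2% of all genes were lower and 12.7% higher, so the count of falls says less than the sizes. Fewer cells expressing a gene and less RNA per cell cannot be told apart in such bulk libraries, here and below.

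The largest fall among chaperones was in HYOU1, an ER chaperone of the HSP70 family known from its induction by low oxygen. HYOU1 measured 36.9, 40.1 and 72.7 TPM (lowest, median, highest) in D3 spheroids, against 224.7, 268 and 325.9 TPM in monolayers. The groups did not overlap, and the change was -2.42 ± 0.20 (limma adjusted p = 4.3e-12). HSPA5 (BiP), the main ER chaperone and a restraint on all 3 sensors, measured 282.3, 341 and 471.2 TPM in D3 spheroids, against 1371.6, 1869 and 2354.7 TPM in monolayers. Its highest D3 library was below its lowest monolayer, with a change of -2.35 ± 0.19 (limma adjusted p = 1.5e-12). DNAJB9, a co-chaperone that helps BiP hold IRE1 inactive, averaged 10.0 ± 2.25 TPM in D3 spheroids and 45.3 ± 12.7 TPM in monolayers (SD). SDF2L1, a partner of BiP in ER folding, measured 22.2, 26.9 and 49.3 TPM in D3 spheroids, against 85.5, 112 and 164.0 TPM in monolayers, and the co-chaperones DNAJC3 and DNAJB11 fell by 1.24 and 1.65. HSP90B1, the HSP90 of the ER, fell by 1.81. MANF and CRELD2, stress-induced ER proteins that can be secreted, fell by 1.50 and 1.53.

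The lectin chaperones, which hold glycoproteins during folding, also fell, CALR by 1.77 and CANX by 0.95. Among the disulfide isomerases PDIA4 fell by 1.65, PDIA6 by 1.36 and PDIA3 by 1.16. CANX had the smallest fall of the 14, and its D3 libraries, at 51.2 to 75.5 TPM, still lay below the monolayers at 99.5 to 137.0 TPM.

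All 5 ERAD and translocation genes fell, with a median change of -1.22. EDEM1, which trims the sugars of misfolded glycoproteins, measured 19.1, 23.6 and 28.0 TPM in D3 spheroids, against 68.1, 85.3 and 108.3 TPM in monolayers. The ranges did not overlap (change -1.81 ± 0.13, limma adjusted p = 6.1e-14). HERPUD1, a scaffold of the ERAD ubiquitin ligase, fell by 1.70, and SEL1L and SYVN1, the core of that ligase, by 1.22 and 1.21. SEC61B, a subunit of the translocon through which proteins enter the ER, fell by 0.42, close to the median of all genes, and did not pass after median-of-ratios rescaling (0.10, limma adjusted p = 0.26).

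The 3 sensors and XBP1 fell as well. XBP1 averaged 102 ± 40.4 TPM in D3 spheroids and 269 ± 105 TPM in monolayers (SD). ERN1 was low, at 1.1, 1.3 and 2.4 TPM in D3 spheroids and 2.5, 6.95 and 11.5 TPM in monolayers. Its ranges did not overlap, and the change was -1.49 ± 0.21 (limma adjusted p = 2.3e-07). ATF6 averaged 1.63 TPM in D3 spheroids and 2.62 TPM in monolayers, and EIF2AK3 0.956 and 1.64 TPM. Both were at 3.2 TPM or less in both groups, and fell by 0.45 and 0.44. These sizes were close to the median gene, but the added 1 TPM understates changes at such levels.

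The ATF4 arm moved less evenly, and its count depended on scaling. Of its 17 genes 14 fell, 1 rose, and DDIT3 and CEBPG did not pass, with a median change of -1.11. After median-of-ratios rescaling 7 of them fell and 1 rose, while all 14 ER folding genes fell, with 33.1% of all genes lower. PPP1R15A (GADD34), the phosphatase subunit that reverses eIF2 phosphorylation, had the largest fall. PPP1R15A measured 46.3, 60.6 and 131.9 TPM in D3 spheroids, against 214.2, 858 and 1594.4 TPM in monolayers. Even its highest D3 library lay below its lowest monolayer (change -3.19 ± 0.29, limma adjusted p = 1.9e-11). NUPR1, a small stress-induced chromatin protein, went the other way. NUPR1 measured 29.5, 36.2 and 83.4 TPM in D3 spheroids, against 0, 3.85 and 10.3 TPM in monolayers, and was higher in every D3 library than in any monolayer (change 3.56 ± 0.36, limma adjusted p = 2.5e-10).

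Most other ATF4-arm genes overlapped between the groups. For ATF4, CHAC1, TRIB3, SESN2 and STC2 they overlapped only through D3 libraries 4 and 5, and for MTHFD2 only through library 5. For each of these genes the other 7 D3 libraries lay below every monolayer. That pair was picked after its values were seen, and the share of all genes doing the same was not counted. SHMT2 did not overlap, at 178.1 to 256.1 TPM in D3 spheroids and 263.4 to 651.3 TPM in monolayers. CHAC1, an enzyme that degrades glutathione, measured 2.3, 5.8 and 148.6 TPM in D3 spheroids and 20.1, 137 and 282.8 TPM in monolayers. DDIT3, the transcription factor CHOP, measured 1.5, 2.6 and 48.6 TPM in D3 spheroids and 1.6, 21.8 and 45.8 TPM in monolayers, and its change of -1.11 ± 0.59 did not pass (limma adjusted p = 0.081). Both genes ranged widely inside each group.

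Split by batch, the 2 arms parted. In batch 2 alone 16 of the 17 ATF4-arm genes fell at D3 and 1 rose (median -2.35), against 4 that fell and 2 that rose in batch 1 alone (median -0.16). The rises were NUPR1 in both batches and, in batch 1, CEBPG, a C/EBP partner of ATF4 (0.35 ± 0.13, limma adjusted p = 0.027). All 14 ER folding genes fell in each batch, with medians of -1.81 in batch 2 and -1.35 in batch 1. Over all genes, batch 2 had 63.4% lower and 15.6% higher, and batch 1 had 68.0% lower and 11.1% higher. HSPA5 changed by -2.80 ± 0.11 in batch 2 and -1.87 ± 0.12 in batch 1, and ATF4 by -1.15 ± 0.18 in batch 2 and -0.26 ± 0.22 in batch 1. TRIB3 changed by -3.88 ± 0.39 in batch 2 and -0.65 ± 0.31 in batch 1, and ASNS by -2.83 ± 0.30 in batch 2 and 0.47 ± 0.21 in batch 1. For ASNS, which makes asparagine, PSAT1 and PHGDH of serine synthesis and VLDLR, a lipoprotein receptor, the sign in batch 1 was opposite to that of the combined fall, and in batch 1 none of the 4 passed.

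The test of the difference between batches in this change, the batch by day interaction, was lower for all 17 ATF4-arm genes (median -2.39) and for 9 of the 14 ER folding genes (median -0.51). Of all genes 20.0% were lower in that test. Among the folding genes HSPA5 had the largest difference (-0.93 ± 0.17, limma adjusted p = 0.00010). CHAC1 had the largest of the ATF4 arm (-3.61 ± 1.2, limma adjusted p = 0.014). CALR, CANX, DNAJC3, DNAJB11 and SDF2L1 did not pass in it. Without D3 libraries 4 and 7, the pair with batch labels in doubt, 15 ATF4-arm and 11 folding genes were lower, with 18.7% of all genes. ATF4 (-0.50, limma adjusted p = 0.063) and VLDLR (-0.35, limma adjusted p = 0.060) then did not pass, while CALR and DNAJB11 did.

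**Figure D2:**
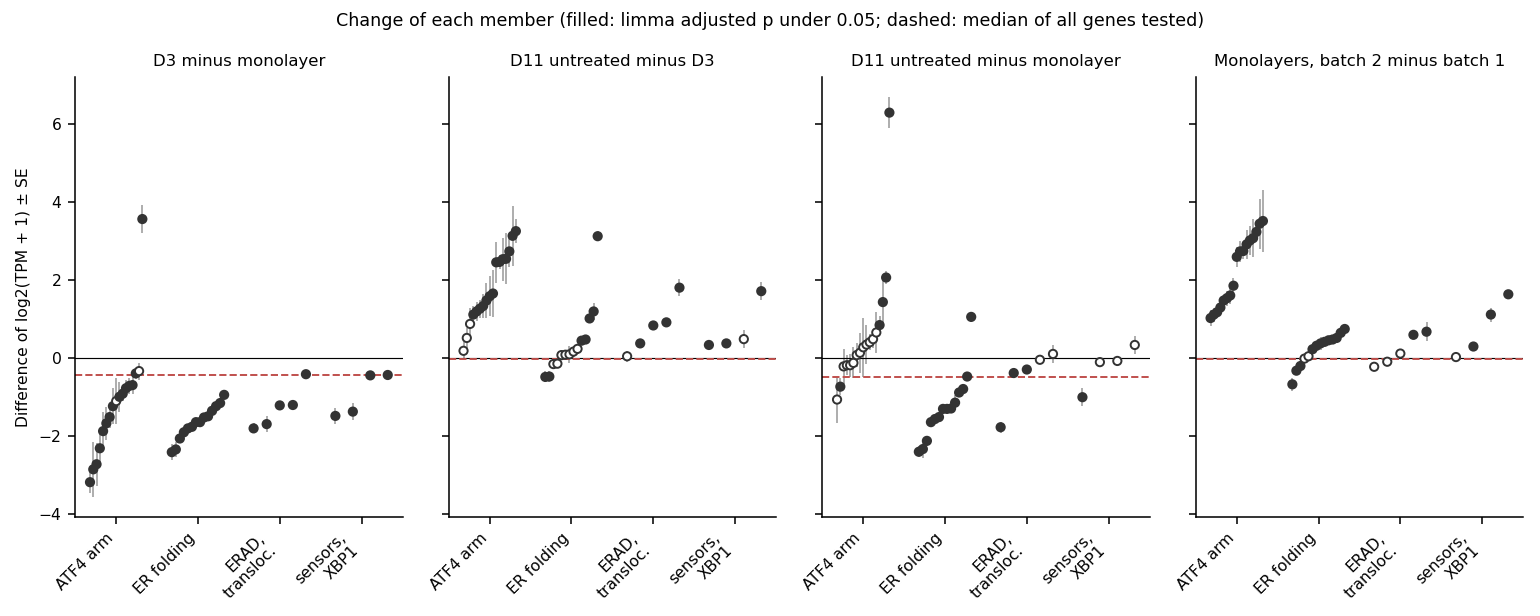
Difference of log2(TPM + 1) ± SE for each member (points, by role group) in 4 comparisons, with filled points at a limma adjusted p under 0.05 and a dashed line at the median of all 12221 genes. At D3 against monolayers 37 of 40 members are filled below 0, whereas at D11 against D3 14 ATF4-arm genes are filled above 0 and ER folding genes lie between -0.49 and 0.47 apart from DNAJB9, HSPA5 and MANF.

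The monolayers themselves differed between batches in the ATF4 arm. The same monolayers enter the interaction, so the 2 results are not independent. In batch 2 monolayers all 17 ATF4-arm genes were higher than in batch 1 monolayers, by a median of 2.59, against -0.03 over all genes. The ER folding genes differed little, with 9 higher, 3 lower and a median of 0.34. Over the 40 members 31 were higher and 3 lower, while 27.1% of all genes were higher and 35.0% lower. The count for the ATF4 arm was the same after median-of-ratios rescaling and after removal of mitochondrial genes.

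CHAC1 measured 272.8, 282.4, 282.8, 255.4 and 248.4 TPM in batch 2 monolayers, against a mean of 22.8 ± 2.16 TPM in the batch 1 monolayers (SD, n = 5). Libraries within a batch lay close together and the batches were far apart (3.51 ± 0.79, limma adjusted p = 0.00052). DDIT3 measured 42.8, 39.2, 40.4, 42.7 and 45.8 TPM in batch 2, against 3.1, 1.6, 3.9, 4.3 and 2.6 TPM in batch 1, again with no overlap (3.44 ± 0.64, limma adjusted p = 6.4e-05). TRIB3, a pseudokinase that restrains DDIT3 and ATF4, averaged 229.7 ± 14.3 TPM in batch 2 and 27.5 ± 1.51 TPM in batch 1. STC2, a secreted glycoprotein, averaged 261 ± 11.7 TPM in batch 2 and 30.3 ± 2.68 TPM in batch 1, and SESN2, a leucine sensor upstream of mTORC1, 84.1 ± 5.25 TPM in batch 2 and 10.3 ± 0.75 TPM in batch 1 (SD, n = 5 each).

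GDF15, a secreted stress cytokine, was higher by 3.23, and NUPR1, which measured 6.6 to 10.3 TPM in batch 2 and 0 to 1.1 TPM in batch 1, by 2.59. Of the enzymes, ASNS was higher by 2.73, PSAT1 by 1.85, MTHFD2 of the mitochondrial folate cycle by 1.53, PHGDH by 1.29 and SHMT2, the mitochondrial serine hydroxymethyltransferase, by 1.17. ATF4 itself differed least, at 1.02 ± 0.20 (limma adjusted p = 0.00015), with 1740.0 to 1824.5 TPM in batch 2 and 849.3 to 906.5 TPM in batch 1. CEBPB, CEBPG and VLDLR lay between, at 1.60, 1.47 and 1.11.

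Among ER folding genes the largest difference upward was in DNAJB9 (0.74 ± 0.12, limma adjusted p = 1.6e-05), and SDF2L1, CANX and DNAJC3 were lower. SDF2L1 measured 86.4, 94.5, 101.8, 91.5 and 85.5 TPM in batch 2 monolayers, against 157.6, 164.0, 147.5, 152.0 and 123.0 TPM in batch 1 monolayers. Every batch 2 library was below every batch 1 library (-0.68 ± 0.16, limma adjusted p = 0.00063). HSPA5 was 1.55-fold higher and CALR and DNAJB11 did not pass. ERN1 was higher by 1.63 ± 0.10 (limma adjusted p = 1.3e-11), with 10.6 to 11.5 TPM in batch 2 and 2.5 to 3.3 TPM in batch 1, and XBP1 by 1.11, while EIF2AK3 did not pass. Of the ERAD genes HERPUD1 and EDEM1 were higher, by 0.67 and 0.59, and SEL1L, SYVN1 and SEC61B did not pass.

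**Figure D3:**
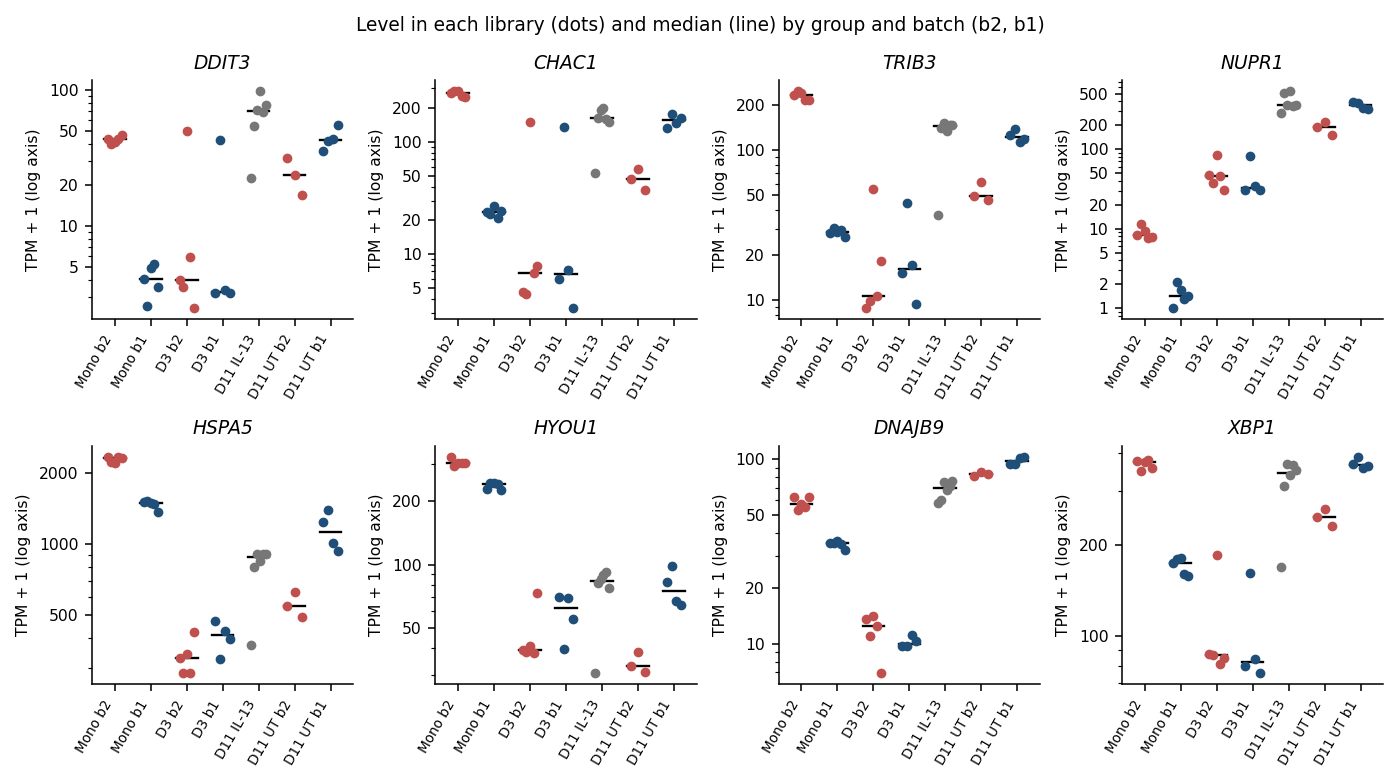
TPM + 1 on a log axis for 8 genes in each library (points) with the median (line), by group and batch (red batch 2, blue batch 1, grey IL-13 libraries not matched to a batch). CHAC1, DDIT3 and TRIB3 differ between the 2 sets of monolayers by 3.51, 3.44 and 3.01 (log2) without overlap, and 1 D3 library labelled with each batch lies far above the rest.

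At D3 the batches did not differ by the same test. Of 12221 genes 0 passed (0%), although 1796 had an unadjusted p under 0.05, among them 12 of the 40 members, and the smallest limma adjusted p of a member was 0.32. The ATF4-arm median was 0.00 and the ER folding median -0.20. Without D3 libraries 4 and 7, 7 members were higher and 14 lower in batch 2, with 19.1% and 13.6% of all genes.

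D3 libraries 4 and 5, a pair chosen after their values were seen, lay above each of the other 7 D3 libraries for 15 of the 17 ATF4-arm genes and for 0 of the 14 ER folding genes. The same held for 15.6% of all genes, and for 2.23% both lay below. Since the pair was chosen for these values, no test is given. CHAC1 measured 135.8 and 148.6 TPM in libraries 4 and 5, against 2.3 to 6.8 TPM in the other 7, a ratio of 28.4 of their mean to the median of the others. DDIT3 measured 42.3 and 48.6 TPM in the pair, against 1.5 to 4.9 TPM in the other 7, a ratio of 18.9. These levels of DDIT3 were close to those of the batch 2 monolayers, and those of CHAC1 were about midway between the 2 batches of monolayers on a linear scale.

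The ratio was 8.45 for STC2, 5.50 for SESN2, 5.04 for TRIB3 and 4.83 for GDF15, and 2.14 for ATF4 itself. ASNS and PHGDH were the 2 ATF4-arm genes in which the pair did not stand above the others, at 20.2 and 23.9 TPM against 6.8 to 24.0 TPM for ASNS. HSPA5 measured 324.3 and 341.2 TPM in the pair and 282.3 to 471.2 TPM in the others, and HSP90B1 was below all of them. Of the remaining members HERPUD1, SYVN1, ERN1 and XBP1 were above in both libraries. HERPUD1 measured 33.5 and 35.6 TPM, against 10.5 to 13.4 TPM, and XBP1 160.9 and 183.6 TPM, against 74.5 to 86.4 TPM. HERPUD1 is the gene whose window held elements of both arms. The window of XBP1 held the ER stress element only. The C/EBP-ATF core was also in the windows of CHAC1 and CEBPG, which stood above, and of ASNS, which did not. The ER folding genes with the ER stress element or its second form did not stand above. The part of these elements in the levels was not tested. The pair belonged to different batches by label, which for library 4 is in doubt, and their mitochondrial shares, 39.7 and 42.2%, were inside the range of the other D3 libraries (39.1 to 57.1%). The part of other differences between the libraries was not tested. Without the pair, 16 ATF4-arm genes fell at D3 and 1 rose, DDIT3 and CEBPG now among the falls, with 68.3% of all genes lower.

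**Figure D4:**
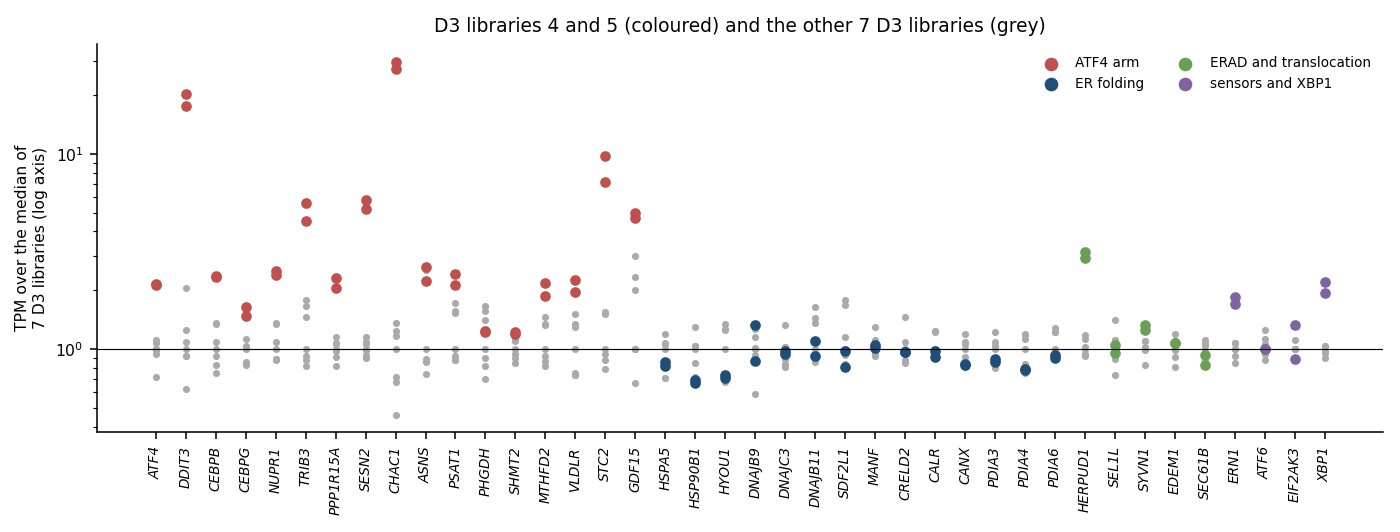
TPM of each member in D3 libraries 4 and 5 (coloured by role group) and in the other 7 D3 libraries (grey), divided by the median of those 7, on a log axis. CHAC1 and DDIT3 stand highest at mean ratios of 28.4 and 18.9, and the mean ratios of the ER folding genes lie between 0.681 and 1.09.

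From D3 to D11 the ATF4 arm rose in untreated spheroids, and the ER folding genes were split. Of the 17 ATF4-arm genes 14 rose and 0 fell, with a median change of 1.58, against -0.02 over all genes. Of the 14 ER folding genes 5 rose, 2 fell and 7 did not pass, with a median of 0.12. Over the 40 members 26 rose and 2 fell, while 33.6% of all genes were higher and 35.8% lower. This comparison shares the D3 libraries with the one above.

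PPP1R15A measured 459.0, 575 and 737.4 TPM (lowest, median, highest) in untreated D11 spheroids, against 46.3, 60.6 and 131.9 TPM in D3 spheroids. Every D11 library was above every D3 library (3.25 ± 0.31, limma adjusted p = 1.7e-10). NUPR1 rose again, to 148.5, 322 and 386.6 TPM at D11, against 29.5, 36.2 and 83.4 TPM at D3, without overlap (2.73 ± 0.40, limma adjusted p = 4.1e-07). VLDLR averaged 30.1 ± 2.02 TPM at D11 and 5.27 ± 2.24 TPM at D3. CHAC1 rose by 3.13 ± 0.77, DDIT3 by 2.54 ± 0.65, GDF15 by 2.53 ± 0.55 and TRIB3 by 2.45 ± 0.53 (limma adjusted p = 0.00091 at most). Their ranges overlapped with D3 libraries 4 and 5 in the case of CHAC1 and DDIT3, and with library 5 only in the case of TRIB3.

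ATF4 averaged 1655 ± 331 TPM at D11 and 823 ± 350.1 TPM at D3, and CEBPB and CEBPG rose by 1.26 and 1.19. SESN2, STC2, ASNS and MTHFD2 rose by 1.47, 1.65, 1.58 and 1.33. The 3 that did not pass were enzymes of serine and glycine metabolism, PSAT1 (0.87), PHGDH (0.51) and SHMT2 (0.18).

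Among the folding genes DNAJB9 stood apart. DNAJB9 measured 80.2, 93.0 and 102.6 TPM in untreated D11 spheroids, against 5.9, 10.0 and 13.2 TPM in D3 spheroids, and the lowest D11 library was far above the highest D3 library (3.12 ± 0.13, limma adjusted p = 1.4e-18). HSPA5 rose by 1.19 ± 0.21, MANF by 1.01 ± 0.079, CALR by 0.47 and DNAJC3 by 0.44. SDF2L1 measured 19.1, 21.7 and 25.9 TPM at D11, against 22.2, 26.9 and 49.3 TPM at D3. It fell by 0.49 ± 0.14 with overlapping ranges (limma adjusted p = 0.0029), and PDIA4 fell by 0.48. HYOU1 (0.09), HSP90B1 (0.16), DNAJB11 (0.08), CRELD2 (0.23), CANX (0.07), PDIA3 (-0.15) and PDIA6 (-0.16) did not pass.

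Of the ERAD and translocation genes 4 of 5 rose. HERPUD1 measured 38.9, 62.8 and 67.0 TPM at D11 and 10.5, 11.7 and 35.6 TPM at D3, without overlap (1.80 ± 0.22, limma adjusted p = 2.3e-08). SYVN1 and SEL1L rose by 0.91 and 0.83 and SEC61B by 0.37, while EDEM1 stayed at 24.7 ± 4.84 TPM at D11 and 23.9 ± 2.6 TPM at D3 (SD). XBP1 measured 230.4, 357 and 389.5 TPM at D11 and 74.5, 84.0 and 183.6 TPM at D3, and rose by 1.71 ± 0.23 (limma adjusted p = 8.9e-08). ATF6 and EIF2AK3 rose by 0.37 and 0.33, and ERN1 did not pass.

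The rise of the ATF4 arm was seen in each batch, with 17 of 17 genes in batch 1 (median 1.90) and 12 higher and 1 lower in batch 2 (median 0.98). The 1 that fell in batch 2 was SHMT2 (-0.33, limma adjusted p = 0.031). Of the ER folding genes, 5 rose and 4 fell when batch 2 was taken alone, and 7 rose and 2 fell when batch 1 was. Over all genes, batch 2 had 27.5% higher and 41.6% lower, and batch 1 had 38.1% higher and 29.8% lower. Without D3 libraries 4 and 5 the count for the ATF4 arm was 15 higher (median 2.00), with 34.6% of all genes. The mitochondrial share fell between these stages, and its removal moved the calls. With mitochondrial genes removed 17 members rose and 9 fell, with 13.6% and 65.7% of all genes, the ATF4 arm at 11 higher and 0 lower and the folding genes at 3 higher (DNAJB9, HSPA5 and MANF) and 8 lower. ATF4-arm genes thus rose under each scaling, and the small rises of CALR and DNAJC3 did not pass without the mitochondrial genes.

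At D11 the ER folding genes were still lower in untreated spheroids than in monolayers, while most of the ATF4 arm did not pass the test in either direction. Of the ATF4 arm 4 genes were higher, 1 lower and 12 did not pass (median 0.27). Of the ER folding genes 13 were lower and DNAJB9 alone was higher (median -1.31, against -0.48 over all genes). Over the 40 members 5 were higher and 18 lower, with 21.0% and 63.5% of all genes.

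NUPR1 had the largest difference of any member, at 148.5 to 386.6 TPM in untreated D11 spheroids and 0 to 10.3 TPM in monolayers (6.29 ± 0.39, limma adjusted p = 1.3e-15). VLDLR was higher by 2.06 ± 0.17 (limma adjusted p = 7.6e-13), DDIT3 by 1.43 and CEBPG by 0.84. SHMT2, the 1 that was lower, measured 151.7, 296 and 337.2 TPM in D11 spheroids and 263.4, 438 and 651.3 TPM in monolayers (-0.74 ± 0.21, limma adjusted p = 0.0021). Only for NUPR1 and VLDLR of these did the groups not overlap. The call of DDIT3 was lost on leaving out a single monolayer such as library 2 (1.21, limma adjusted p = 0.077). That of SHMT2 was lost after median-of-ratios rescaling (-0.14, limma adjusted p = 0.49). Without mitochondrial genes those of CEBPG (0.27, limma adjusted p = 0.31) and DDIT3 (0.95, limma adjusted p = 0.17) were lost. The sign was opposite within batch 2 for DDIT3 (-0.88) and CEBPG (-0.29) and within batch 1 for SHMT2 (0.19), though none of these passed.

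SDF2L1 had the largest fall, at 19.1, 21.7 and 25.9 TPM in D11 spheroids and 85.5, 112 and 164.0 TPM in monolayers (-2.41 ± 0.14, limma adjusted p = 3.2e-16). HYOU1 was lower by 2.34 and PDIA4 by 2.13, and HSPA5 by 1.15. DNAJB9 measured 80.2, 93.0 and 102.6 TPM in D11 spheroids, against 31.3, 43.3 and 61.5 TPM in monolayers (1.05 ± 0.13, limma adjusted p = 1.1e-08). Of the rest EDEM1 was lower by 1.78, ERN1 by 1.01, SEL1L by 0.39 and SYVN1 by 0.30, while XBP1, HERPUD1, SEC61B, ATF6 and EIF2AK3 did not pass.

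In this comparison the direction of the ATF4 arm depended on which batch was used. Within batch 2 2 of its genes were higher and 11 lower (median -1.54), and within batch 1 16 were higher and 0 lower (median 1.54). Over all genes, batch 2 had 18.2% higher and 65.9% lower, and batch 1 had 24.1% higher and 58.7% lower. CHAC1 changed by -2.54 in batch 2 (limma adjusted p = 0.015), with 45.3, 56.9 and 35.9 TPM in D11 spheroids and 248.4 to 282.8 TPM in monolayers. In batch 1 it measured 132.4, 175.7, 145.6 and 163.1 TPM in D11 spheroids and 22.8 ± 2.16 TPM in monolayers (SD, n = 5), so that the groups lay the other way round. The difference between the batches in this change was not itself tested. ER folding counts were 13 lower and 1 higher in each batch. Median-of-ratios rescaling gave 14 members higher and 14 lower, with 40.1% and 40.2% of all genes, and left 12 of the 13 folding genes lower, MANF being the other (0.11, limma adjusted p = 0.19).

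Untreated D11 spheroids of batch 2 had lower levels than those of batch 1 for 27 members and higher for 0, with 37.0% and 4.18% of all genes. Of the ATF4 arm 10 were lower (median -0.94), and of the ER folding genes 11 (median -0.35, against -0.18 over all genes). Median-of-ratios rescaling left 13 members lower and 1 higher, with 13.8% and 17.7% of all genes. Of the folding genes HYOU1, HSPA5 and DNAJB11 were then still lower, and PPP1R15A became higher (0.76, limma adjusted p = 0.012). For the ATF4-arm genes that were lower, the order is opposite to that of the monolayers. GDF15 measured 3.1, 4.1 and 1.8 TPM in batch 2, against 18.4, 22.0, 12.4 and 11.7 TPM in batch 1, without overlap (-2.10 ± 0.25, limma adjusted p = 2.0e-06). HYOU1 measured 32.1, 37.4 and 29.8 TPM in batch 2, against 81.4, 97.5, 66.5 and 63.1 TPM in batch 1, also without overlap (-1.18 ± 0.19, limma adjusted p = 6.2e-05). HSPA5 was lower by 1.03, PSAT1 by 1.77, ASNS by 1.62, SEL1L by 0.67 and ATF6 by 0.61. PPP1R15A, VLDLR, CEBPB and DNAJB9 were among those that did not pass.

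Few members differed between IL-13 and untreated D11 spheroids by the test. Of 40 members 3 were higher with IL-13 and 0 lower, although 39.2% of all genes were higher and 8.49% lower. PHGDH measured 11.6, 22.1 and 23.3 TPM (lowest, median, highest) in IL-13 spheroids, against 5.9, 15.3 and 17.1 TPM in untreated spheroids (0.77 ± 0.29, limma adjusted p = 0.032). SHMT2 measured 216.4, 396 and 420.4 TPM with IL-13, against 151.7, 296 and 337.2 TPM without (0.63 ± 0.24, limma adjusted p = 0.033), and SEC61B was higher by 0.29 ± 0.12 (limma adjusted p = 0.040). The ranges overlapped for each of the 3 genes. Against the untreated libraries of batch 1 only, none of the 3 passed (PHGDH 0.29, SHMT2 0.21 and SEC61B 0.23, limma adjusted p = 0.25, 0.39 and 0.35). In untreated spheroids PHGDH averaged 7.37 TPM in batch 2 and 16.3 TPM in batch 1, and SHMT2 177 and 313 TPM. None of the 3 calls held under every leave-out: without untreated library 4, for example, none of them passed. Over the leave-outs the count of members higher ran between 0 and 12. The count of 12 came without IL-13 library 1. The share of all genes in that leave-out is not given here, and with all libraries it was 39.2% higher, so the count alone sets the members apart from no background.

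CHAC1 averaged 153 ± 53.0 TPM with IL-13 and 108 ± 59.7 TPM without, DDIT3 64.6 ± 25.4 TPM with and 34.6 ± 12.8 TPM without, and HSPA5 791 ± 210.2 TPM with and 891 ± 350.5 TPM without (SD, n = 6 and 7), and none passed. The DDIT3 change was 1.14 ± 0.72 (limma adjusted p = 0.20). That SE rests on 1 estimate of the spread for all groups, so it also carries the spread of monolayers and D3 spheroids. Against the untreated libraries of batch 1 only, in a fit without those groups, the change was 0.46 ± 0.34 (limma adjusted p = 0.35). PPP1R15A and DNAJB9 measured 283.6 to 427.1 and 57.0 to 75.1 TPM with IL-13, below every untreated library (459.0 to 737.4 and 80.2 to 102.6 TPM), yet neither passed in the fit with batch (-0.42 ± 0.35 and -0.35 ± 0.15, limma adjusted p = 0.34 and 0.051). Both passed in a fit of the 2 groups alone (PPP1R15A -0.62 and DNAJB9 -0.49, limma adjusted p = 0.00056 and 0.00039). Both also passed against the untreated libraries of batch 1 only (-0.53 for each, limma adjusted p = 0.0089 and 0.0023). The IL-13 columns could be matched to their group only, of which 5 samples were labelled batch 1 and 1 batch 2. Median-of-ratios rescaling gave 0 members higher and 7 lower, with 19.2% and 20.6% of all genes, so no member was called under both scalings. PPP1R15A and DNAJB9 kept their negative sign after it (-0.67 and -0.60, limma adjusted p = 0.13 and 0.0006).

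The balance of the 2 arms, taken as the mean log2(TPM + 1) of the 16 ATF4-arm genes other than ATF4 minus that of the 14 folding genes, is a description over the chosen genes and carries no test. It averaged -0.318 ± 0.0531 in batch 2 monolayers and -2.44 ± 0.0428 in batch 1 monolayers (SD, n = 5 each). D3 spheroids averaged -0.862 ± 0.758, with library 4 at 0.38 and library 5 at 0.53 and the other 7 between -1.45 and -1.01. In D11 spheroids it lay between 0.23 and 0.76 with IL-13 and between 0.02 and 0.76 untreated. In this balance all D11 libraries thus lay above all monolayers, and D3 libraries 4 and 5 lay with the D11 libraries. The ATF4-arm mean alone was 6.75 to 6.83 in batch 2 and 4.42 to 4.53 in batch 1 monolayers. It was 5.43 to 6.77 in untreated and 5.55 to 6.73 in IL-13 D11 spheroids, and 5.58 and 5.72 in D3 libraries 4 and 5. Against batch 2 monolayers the gap thus lay in the folding genes, not in a higher ATF4-arm mean. The summed TPM of the 14 folding genes showed where the monolayers stood apart, at 4422 to 6104, while D3 spheroids were at 1162 to 1707 and untreated D11 spheroids at 1666 to 2946.

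**Figure D5:**
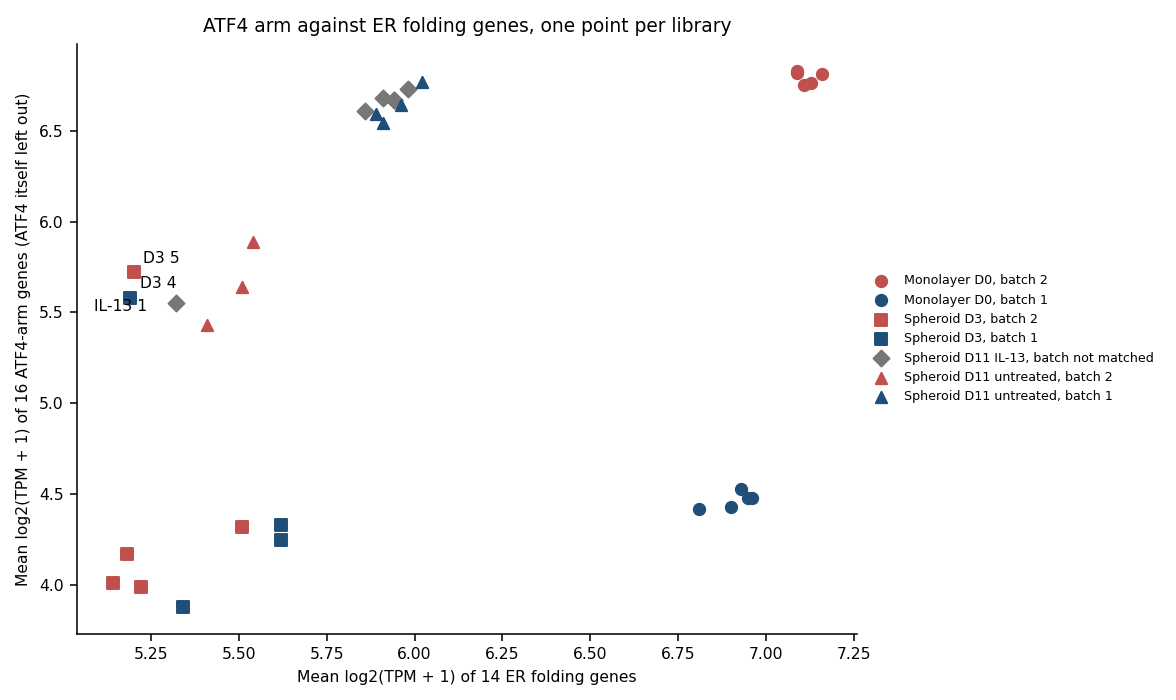
Mean log2(TPM + 1) of 16 ATF4-arm genes (vertical) against that of 14 ER folding genes (horizontal), 1 point per library, with colour for batch and shape for group. Monolayers of the 2 batches share a narrow range of folding genes, 6.81 to 7.16, and lie apart on the vertical axis, at 6.75 to 6.83 in batch 2 and 4.42 to 4.53 in batch 1.

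Members also differed in how evenly they were measured within a batch. Among members at 10 TPM or more, the median coefficient of variation was 4.42% in batch 2 and 4.98% in batch 1 monolayers, 33.8% in batch 2 and 28.8% in batch 1 D3 spheroids, and 9.12% in batch 2 and 7.05% in batch 1 untreated D11 spheroids. D3 was thus the least even stage, although the fit across groups uses 1 estimate of the spread per gene for all of them.

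Further genes of the 2 pathways, taken from lists written for this purpose, were counted in the same fits. At D3, 34 of 37 further integrated stress response genes and 55 of 57 further unfolded protein response genes fell and 0 rose, beside 68.2% of all genes lower. The largest falls were in parts of the ER entry and folding machinery, SSR3 of the translocon-associated complex (80.4 ± 14.1 TPM at D3 and 308 ± 56.7 TPM in monolayers), SEC61A1, the pore of the translocon (57.2 ± 8.29 TPM at D3 and 194 ± 8.66 TPM in monolayers), and DNAJC10, an ER disulfide reductase (5.42 ± 1.44 TPM at D3 and 19.8 ± 3.56 TPM in monolayers). From D3 to D11 the first list counted 16 higher and 8 lower and the second 31 higher and 11 lower, beside 33.6% and 35.8% of all genes. The largest rises were in EIF4EBP1, a repressor of cap-dependent translation and ATF4 target (90.9 ± 4.38 TPM at D11 and 12.7 ± 3.29 TPM at D3), ERO1A, the oxidase that recharges disulfide isomerases (114 ± 16.6 TPM at D11 and 18.9 ± 2.33 TPM at D3), and ATF3, a transcription factor downstream of ATF4 (3.33 ± 0.407 TPM at D11 and 0.756 ± 0.682 TPM at D3). The largest falls were in the amino acid transporters SLC7A5 (169.8 ± 44.5 TPM at D11 and 648 ± 135 TPM at D3), SLC7A1 and SLC3A2, known as ATF4 targets, by 1.95, 1.63 and 0.90, so members of the arm outside the 40 moved in both directions.

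In untreated D11 spheroids against monolayers the first list counted 5 higher and 22 lower and the second 9 higher and 36 lower, beside 21.0% and 63.5% of all genes. ERO1A, KLHL24, a ubiquitin ligase adaptor that acts on keratin 14, and EIF4EBP1 were higher by 1.51, 1.38 and 1.36, and SLC7A5, DNAJC10 and FKBP11, an ER prolyl isomerase, lower by 2.54, 2.44 and 2.22. With IL-13 the counts were 7 of 37 higher and 2 lower, and 12 of 57 higher and 4 lower. The shares higher were below the 39.2% of all genes, of which 8.49% were lower. JDP2, a repressor of the AP-1 family, averaged 11.0 ± 3.16 TPM with IL-13 and 4.84 ± 1.1 TPM without (1.18 ± 0.31, limma adjusted p = 0.0027), and WARS1 and NARS1, which charge tRNA with tryptophan and asparagine, were higher by 0.83 and 0.60. ERO1A averaged 62.2 ± 14.1 TPM with IL-13 and 114 ± 16.6 TPM without (-0.87 ± 0.11, limma adjusted p = 1.9e-07), and SLC38A2, an amino acid transporter, and LMAN1, a cargo receptor between ER and Golgi, were lower by 0.76 and 0.40. In batch 2 against batch 1 monolayers, 29 further integrated stress response genes were higher and 6 lower, against 11 and 21 further unfolded protein response genes, beside 27.1% and 35.0% of all genes.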

How the data were processed

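The authors deposited 1 table of TPM values for 19345 symbols and 32 libraries, rounded to 1 decimal. Per the submitters' processing notes hg38 was the build; which aligner and quantifier were run is not given in the sources used here. Depth cannot be read from TPM, and precision rests on the spread between libraries. Columns matched 1 sample each by name, except the 6 IL-13 columns, which are numbered otherwise than their samples (8 to 13) and were matched to the group only. Columns of other samples numbered 0. Library numbers are column numbers. One part of the culture protocol is not reported here.

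Genes with at least 1 TPM in at least 6 libraries were kept. log2(TPM + 1) was the response in limma 3.58.1, run under R 4.3.3, with terms for group and batch (the IL-13 columns carried their group's share in batch 2), an intensity trend and Benjamini-Hochberg adjustment over 12221 genes. Batch contrasts came from group, batch and their interaction over 26 libraries. The fits were also run on simulated data. Those had 1 spread per gene for all groups and no batch difference, so they cannot speak for the uneven D3 libraries or the differences between batches. The members, lists and alternatives were chosen with earlier results of these data known. All members are named; values by library are given for those with the largest change of a role group and for some others chosen after their values were seen. Further genes named were the 3 largest rises and falls past the threshold of each comparison of groups. Same-numbered libraries of different groups shared no stated origin. Promoter windows were RefSeq's on GRCh38.p14, searched in Python 3.11.15.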

Additional observations from a re-analysis of the deposited data

Results flagged for a closer look

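Single libraries stood far from the rest of their group for some members. Of 160 groups of a member's values, 18 had a library whose gap to its nearest neighbour was over the 95% limit of Dixon's test. Chance gives about 1 in 20 for values of a single normal distribution, whereas these groups pooled both batches. Libraries that lie close to each other, such as D3 libraries 4 and 5, hide each other in this test. IL-13 library 1 was the low one in 16 of them, and these are not independent, since 1 library gives them all. Its TPM values were ATF4 1318.0, CEBPG 122.5, TRIB3 36.0, SESN2 17.6, CHAC1 51.9, PHGDH 11.6, SHMT2 216.4, STC2 13.2 and GDF15 4.1 in the ATF4 arm. In the other groups they were HSPA5 371.5, HYOU1 29.4, SDF2L1 15.8, PDIA3 30.8, PDIA4 24.7, ATF6 1.6 and XBP1 167.5. Its mitochondrial share, 13.2%, was the lowest of the 6, and its part in these values was not tested. The balance of the 2 arms was 0.23 in library 1 and 0.73 to 0.76 in the other IL-13 libraries. In untreated D11 spheroids it was 0.02 to 0.36 in batch 2 and 0.63 to 0.76 in batch 1. One IL-13 sample was labelled batch 2. Whether library 1 is that sample could not be settled, since its column matches the group only, and the part of batch was not tested. The high ones were DNAJC3 in D3 library 2, at 4.9 TPM, and CRELD2 in D3 library 8, at 15.7 TPM.

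The change at D3 against monolayers differed between batches (batch 2 minus batch 1, limma interaction) for 30 members, beside 20.0% of all genes lower. This test uses the same monolayers as the comparison of their batches and is not independent of it. In the ATF4 arm the log2 differences were CHAC1 -3.61, DDIT3 -3.41, STC2 -3.38, GDF15 -3.37, ASNS -3.30, TRIB3 -3.23, SESN2 -2.90, PPP1R15A -2.58, NUPR1 -2.39, PSAT1 -2.18, MTHFD2 -1.71, PHGDH -1.63, CEBPG -1.35, CEBPB -1.31, SHMT2 -1.17, ATF4 -0.89 and VLDLR -0.79. In ER folding they were HSPA5 -0.93, HSP90B1 -0.77, HYOU1 -0.73, PDIA4 -0.69, PDIA3 -0.66, CRELD2 -0.63, DNAJB9 -0.59, MANF -0.43 and PDIA6 -0.35. The others were ERN1 -1.65, XBP1 -1.06, EDEM1 -0.77 and ATF6 -0.42.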

How the results depend on the processing

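Depth is unknown for TPM, so low members such as ERN1, ATF6 and EIF2AK3 carry an error that could not be computed. Counts of members in this section stand without the share of all genes, so they show only how far the calls moved. Leaving out 1 library at a time gave these counts of members. At D3 against monolayers 1 to 1 were higher and 36 to 38 lower, at D11 against D3 26 to 30 and 2 to 2, and at D11 against monolayers 4 to 7 and 18 to 19. For IL-13 against untreated they were 0 to 12 and 0 to 2. For batch 2 against batch 1 they were 29 to 30 and 3 to 4 in monolayers, 0 to 2 and 0 to 10 at D3, and 0 to 0 and 19 to 24 at D11. For the interaction they were 0 to 1 and 29 to 32. Over single members 4239 leave-outs kept call and direction, 74 gained and 87 lost the call. The other alternatives did so in 2103, 109 and 68 cases, with 40 reversals, and the cause was not tested.

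With mitochondrial genes removed, 17 members were higher and 9 lower at D11 against D3, 3 higher at D11 against monolayers, 0 higher with IL-13 and 1 lower in batch 2 monolayers. Median of ratios gave 14 higher at D11 against monolayers, 0 higher and 7 lower with IL-13, and 1 higher and 13 lower between D11 batches. Batch 1 alone gave 2 higher at D3 and 20 higher at D11 against monolayers. Batch 2 alone gave 5 lower at D11 against D3, and 3 higher and 31 lower at D11 against monolayers. With IL-13, pseudocount 5 gave 1 lower, no batch term 1 lower, a fit of the 2 groups alone 1 higher and 3 lower, and untreated libraries of batch 1 alone 0 higher and 2 lower. Between D3 batches, leaving out libraries 4 and 7 gave 7 higher and 14 lower, and leaving out 4 and 5, chosen after seeing the data, 2 and 6.

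Reversed log2 values at D11 against D3 were, without mitochondrial genes, ATF6 -0.03, CALR -0.13, CANX -0.52, CRELD2 -0.33, DNAJB11 -0.48, DNAJC3 -0.05, EDEM1 -0.54, HSP90B1 -0.43 and SEC61B -0.21, and in batch 2 SHMT2 -0.33. At D11 against monolayers they were, in batch 2, ASNS -1.98, CEBPG -0.29, CHAC1 -2.54, DDIT3 -0.88, GDF15 -2.21, PPP1R15A -1.11, TRIB3 -2.14 and XBP1 -0.58. In batch 1 they were ATF6 0.34, MTHFD2 0.98, PHGDH 0.90, PSAT1 1.54, SESN2 1.44, SHMT2 0.19 and STC2 1.16. By median of ratios they were ATF6 0.34, EIF2AK3 0.25, MANF 0.11, SEC61B 0.52, SEL1L 0.17 and SYVN1 0.29, and without mitochondrial genes HERPUD1 -0.47. At D3 against monolayers they were, in batch 1, ASNS 0.47, CEBPG 0.35, PHGDH 0.14, PSAT1 0.12 and VLDLR 0.01, and by median of ratios SEC61B 0.10 and VLDLR 0.06. Between D11 batches MANF was 0.04 by median of ratios.

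A replicate block, pairing libraries of the same number, gave 1 higher and 34 lower at D3 against monolayers, 26 and 2 at D11 against D3, and 5 and 18 at D11 against monolayers. The numbers share no stated origin, since same-numbered monolayers and D3 spheroids shared a batch in 2 of 9 cases, with correlations of -0.444 to 0.356.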
